A study of Mus musculus and Homo sapiens with 22 samples.

Results

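Introns of at most 200 bases in protein-coding genes were followed in HEK293 cells with and without tau aggregates. They were chosen by 3 criteria from the intron table that the authors deposited: a length of at most 200 bases, a host gene typed as protein-coding, and a mean normalised read count of at least 36. The last criterion is a measured value, so the set was selected on abundance. It held 1631 of the 172099 introns in the table, in 1033 genes. Of these genes, 710 gave 1 intron and 323 gave 2 or more, up to 12 in 1 gene. The introns were 20 to 200 bases long with a median of 116, and all 1631 had an adjusted p, which the table gives from a mean count of 35.2 upward.

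HEK293 is a human embryonic kidney line. The biosensor cells used here express 2 fusion proteins of the tau repeat domain, which bears the P301S mutation and readily aggregates, with CFP and with YFP, and both groups carry these transgenes. At 96 h, 3 plates had been given 200 ug of clarified brain homogenate from P301S mice by lipofection and held aggregates, and 3 plates were mock transfected and held none. The labels describe each plate as a biological replicate, and the protocol also speaks of homogenate with WT tau, although the control group is labelled as mock transfected. Homogenate and aggregates come together in this design and cannot be told apart. A repeat domain fused to a fluorescent protein in a dividing kidney line is a limited model of full-length tau in neurons. A second experiment sequenced total RNA (2 libraries) and sorted aggregates (2 libraries) from the same biosensor line 24 h after the homogenate.

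Introns are removed from a transcript by the spliceosome, which recognises the splice sites at both ends and the branch point. Short introns are commonly recognised as a unit across the intron, whereas long ones are recognised across the flanking exons. Reads within an intron come from transcripts not yet spliced, from transcripts that keep the intron, and from stable RNAs cut out of the intron, such as small nucleolar RNAs (snoRNAs), which guide modification of ribosomal RNA. Many snoRNAs lie in introns of genes for ribosomal proteins and nucleolar proteins. Nuclear speckles are nuclear bodies rich in splicing factors, and the series title names the mislocalization of speckle components by tau aggregates as its subject.

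The 96 h values are the authors' own: a mean normalised count over the 6 libraries, a log2 change, its standard error (SE) and p-values. No value per library stands in these tables, so the spread between plates is seen here only through the SE, and how deeply these libraries were sequenced is unknown. The header does not name the direction of the change. It was read as with minus without aggregates, because 448 of the 473 called introns found as retained introns in the authors' splicing table had the same sign there. Counts are not scaled to the gene's spliced transcripts. More transcription of a gene and slower or less complete splicing therefore cannot be told apart from the counts, and neither can fewer cells and less RNA per cell. Coordinates are given on hg38, the first and last base of the intron counted from 1.

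An intron was called where the deposited adjusted p was under 0.05. Of the 1631 short introns, 77 were called higher with aggregates and 0 lower. Over all 82091 introns with an adjusted p, 1.5% were called higher and 0.146% lower. At a deposited unadjusted p under 0.05, 289 short introns were higher and 6 were lower. The share of all introns at that cut was not worked out, so these 2 counts have no comparison. The median log2 change of the short introns was 0.29 with quartiles of 0.05 and 0.51, and 79.2% of them had a change above 0. Over all introns with an adjusted p the median was 0.00 and 50.2% were above 0. The 77 called introns, in 58 genes, were higher by 0.80 to 2.16 log2 units with a median of 1.15, which is 2.22-fold, and 63 of them by at least 1.

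**Figure D1:**
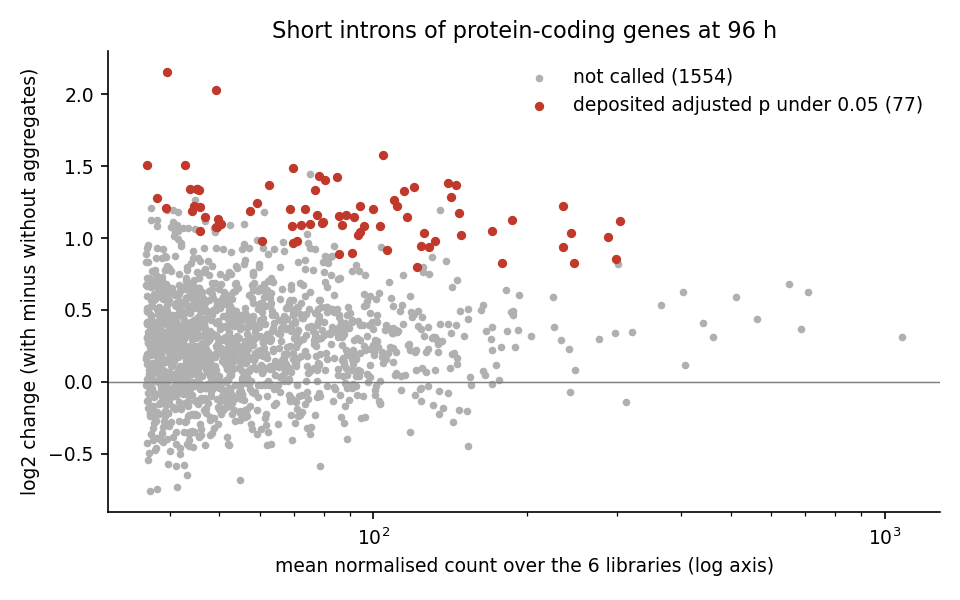
Log2 change with minus without aggregates (vertical axis) against the mean normalised count over the 6 libraries (horizontal, log axis) for 1631 short introns, each a point, from the authors' deposited table. The 77 called introns, in red, all lie above 0, between 0.80 and 2.16, and the called introns reach up to a mean count of 303.

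Calls were more frequent at higher read counts. Among short introns with a mean count of 36 to 50, 18 of 777 were called, among those of 50 to 100 the count was 30 of 666, and among those of at least 100 it was 29 of 188. Longer introns of protein-coding genes in the same count ranges were called higher in 0.512%, 0.859% and 2.09% of cases. The medians of the short introns in these ranges were 0.26, 0.29 and 0.35 log2 units, against 0.02, 0.02 and -0.01 in the longer introns. The count criterion uses the mean of both groups. Group means worked out from the deposited mean and change were under 36 without aggregates for 304 short introns, 22 of them called, and under 36 with aggregates for 51. These introns passed through their higher group. The 1276 introns with both group means at 36 or more had a median of 0.22.

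Among called short introns, the largest rises were in genes for a ribosomal protein, a transcription regulator and a nucleolar protein. RPS3, a protein of the small ribosomal subunit, had an intron of 92 bases (chromosome 11, 75399578 to 75399669) that was higher by 2.16 ± 0.41 log2 units (SE, 3 plates per group; adjusted p = 6.13e-05 in the authors' deposited table). Its mean count of 39.5 lies close to the criterion and corresponds to group means of 14.5 without and 64.6 with aggregates. ID3, an inhibitor of basic helix-loop-helix transcription factors, had an intron of 51 bases (chromosome 1, 23559076 to 23559126) higher by 2.03 ± 0.37 (deposited adjusted p = 2.6e-05), with group means of 19.3 and 79.1. NOP56, a core protein of the box C/D snoRNA particle, followed with an intron of 69 bases (chromosome 20, 2652932 to 2653000) at 1.58 ± 0.30 (deposited adjusted p = 7.75e-05) and group means of 52.5 and 157.

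The other 7 of the 10 largest rises lay between 1.38 and 1.51 log2 units. They included ALYREF, an mRNA export adaptor (192 bases, 1.51), PCNA, the sliding clamp of DNA replication (86 bases, 1.49), and RNPS1, a splicing regulator bound to exon junctions (52 bases, 1.41). A second RPS3 intron of 106 bases rose by 1.42. GPAA1, a subunit of the enzyme that attaches GPI anchors, rose by 1.51 in an intron of 100 bases, and its mean count of 36.1 was just above the criterion. Its group means were 18.8 without and 53.5 with aggregates, so it met the criterion through the group with aggregates. ZFAND5, a zinc finger protein that binds ubiquitin, rose by 1.43 in an intron of 115 bases. EIF4A2, an RNA helicase of translation initiation, rose by 1.38 in an interval of 23 bases (chromosome 3, 186784180 to 186784202). Each of these is a single intron, and the SE of the 10 ranged from 0.27 to 0.41.

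Intervals as short as that of EIF4A2 seldom had the ends of a splice junction in the authors' splicing table. Of the 1631 short introns, 828 (50.8%) had both ends at a splice junction listed there, but only 1 of the 89 intervals of 50 bases or fewer did, and 0 of the 5 called ones. Whether these 89 are pieces of longer introns was not tested. Of all 77 called introns, 34 (44.2%) had both ends at a listed junction. Among the largest rises named above, only the introns of ALYREF and PCNA did. Those of RPS3, ID3, NOP56, GPAA1, ZFAND5, RNPS1 and EIF4A2 did not, and the reason was not tested. The 5 shortest, of 20 to 22 bases in RANGAP1, RHBDD3, MRPS21, METTL3 and NONO, were not called and had log2 changes from -0.31 to 0.41. The intervals of 50 bases or fewer had a median of 0.23, those of 51 to 100 bases 0.30, those of 101 to 150 bases 0.28 and those of 151 to 200 bases 0.28. Without the intervals of 50 bases or fewer, 72 of 1542 introns were called and the median was 0.29.

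High read counts did not by themselves bring a call. The short introns with the highest mean counts were those of RPS3 (74 bases, mean count 1081), RPL7A (104 bases, 709), EEF1A1 (87 bases, 686) and ATF4 (101 bases, 651). Their log2 changes were 0.31 ± 0.47, 0.62 ± 0.22, 0.37 ± 0.21 and 0.68 ± 0.21 (SE), with deposited adjusted p of 0.876, 0.134, 0.526 and 0.062. ATF4, the transcription factor of the integrated stress response, thus missed the threshold narrowly. RBBP6, CSNK1E, HNRNPH1 and RPS6 came next with mean counts of 562 to 442 and changes of 0.31 to 0.59, none called. The SE of 0.47 for the RPS3 intron was above the median SE of all short introns, 0.32, despite its count being the highest of all.

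At the low end no short intron was called. The lowest changes, named after their values were seen, were in ATM, a kinase of the DNA damage response (-0.76 ± 0.35), PHKG1, a catalytic subunit of phosphorylase kinase (-0.74 ± 0.38), CCDC14 (-0.73 ± 0.32), AKT2, a kinase of insulin signalling (-0.68 ± 0.29), and KIAA1147 (-0.65 ± 0.32). Their deposited adjusted p lay between 0.273 and 0.433. The longer introns of these genes had medians from -0.17 to 0.01.

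Of the 77 called introns, 32 lay in 13 genes with 2 or more called short introns. In BRD2, a bromodomain protein that binds acetylated histones, all 6 short introns in the set were called, with changes of 1.01 to 1.37. Another BRD2 intron of 70 bases (mean count 4.70, change 1.59 ± 0.94) was under the count criterion. In NOP56 all 4 were called, with changes of 0.98 to 1.58. Others, each with 2 called, included RPS3 (of 4), GNL3 (of 7), NCL (of 4), RPL7A, DDX5, EEF2 and CBX6 (of 3 each), and PTMA, SETD1A and SQSTM1 (both of their 2 in the set). SETD1A introns of 139 and 77 bases with mean counts of 34.9 and 18.6 were left out by the criterion (changes 0.75 and 0.63). Group means without aggregates were under 36 for the called introns of SETD1A (34.9 and 32.2) and DDX5 (23.8 and 26.8). The same held for 1 called CBX6 intron (24.8). These tallies thus depend in part on the count criterion. Introns of 1 gene share its transcripts and are not independent. With the intron of highest mean count taken from each gene, 42 of 1033 were called and the median was 0.26, and without BRD2 the count was 71.

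The longer introns of the same genes were raised as well. BRD2 had 8 longer introns with a mean count of at least 36, of which 5 were called, with the largest change, 1.40 ± 0.21, in an intron of 509 bases. Among introns with that mean count, the first of BRD2 by genome position, of 879 bases, stood at 0.18 ± 0.24, and the second, of 397 bases, at 0.55 ± 0.31. All later introns of at least that mean count lay between 0.86 and 1.40. In RPL7A, a large-subunit ribosomal protein, the largest change was in a longer intron of 344 bases (1.67 ± 0.25), above its called short introns (1.12 and 1.14). In GNL3, a nucleolar GTP-binding protein, 6 of 8 longer introns and 2 of 7 short introns were called, and its short introns ranged from 0.10 to 1.08. In RPS3 the changes fell into a higher pair of short introns at 2.16 and 1.42 and a lower pair at 0.31 and 0.64.

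**Figure D2:**
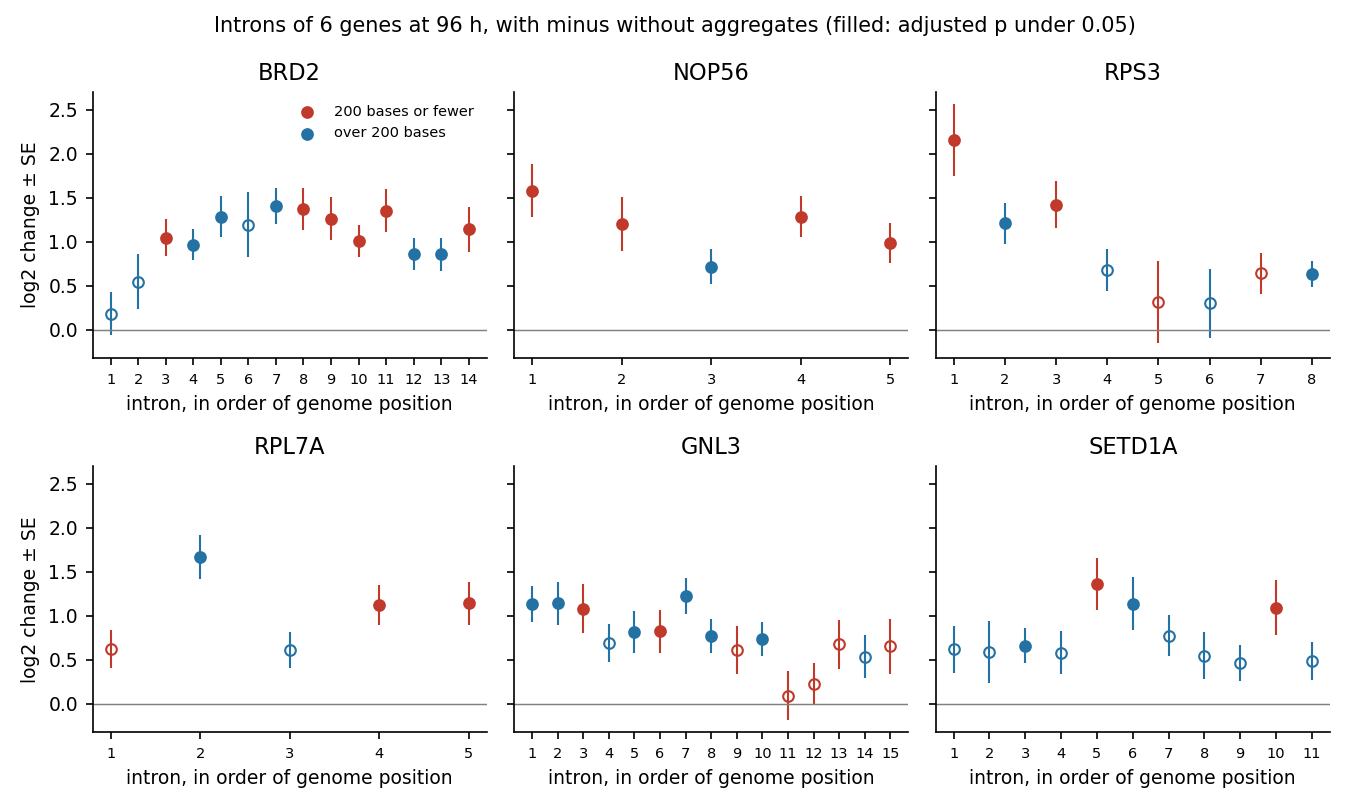
Log2 change with minus without aggregates (vertical axis, bars are the deposited SE) of each intron with a mean count of at least 36 in 6 genes, in order of genome position (horizontal axis), red for 200 bases or fewer and blue for longer, filled where called. In BRD2 all 6 short introns and 5 of 8 longer ones are called, while in GNL3 the short introns range from 0.10 to 1.08.

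Across all genes with both kinds of intron, short introns moved about as much as the longer ones. A total of 1553 short introns in 979 genes could be set against the median of their gene's longer introns with a mean count of at least 36. The short introns had a median of 0.28 and the longer ones 0.26. The median difference, short minus longer, was 0.0025 log2 units with quartiles of -0.20 and 0.20, and 781 short introns stood above and 772 below. Over the 1553 introns, which share libraries and in part genes, Pearson's r was 0.62 and Spearman's rho 0.59. Beside the 73 called short introns with such a partner, the longer introns had a median of 0.81 and the medians of all 54 genes were above 0. That the called introns exceeded their partners in 63 of 73 cases is fixed in part by the choice of the called ones.

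**Figure D3:**
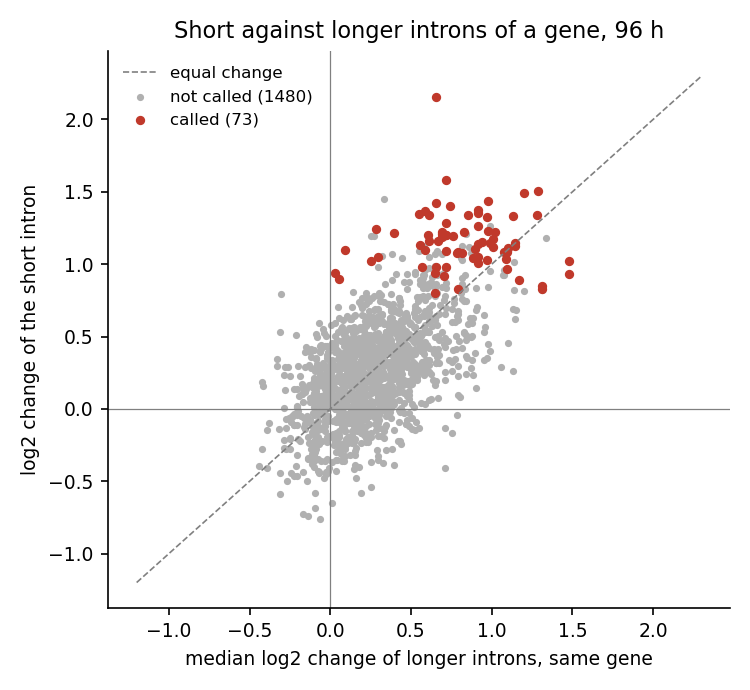
Log2 change of each short intron (vertical axis) against the median log2 change of the longer introns of its gene (horizontal axis), 1553 introns, red where the short intron is called, dashed line for equal change. The points spread about evenly around the line, with 781 above and 772 below.

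Among longer introns with a mean count of at least 36, 120 of 272 (44.1%) were called higher in genes with a called short intron, 239 of 8015 (2.98%) in genes whose short introns were not called, and 750 of 67069 (1.12%) in genes with no short intron that met the count criterion. The medians were 0.71, 0.15 and -0.01. Introns of 1 gene share its transcripts and libraries, so the higher share beside a called short intron is fixed in part by that choice. The median mean counts also differed, at 188, 120 and 109. Over protein-coding introns with a mean count of at least 36, the change went with length. The median fell from 0.23 at 201 to 400 bases to 0.16 at 401 to 1000, 0.06 at 1001 to 5000, -0.06 at 5001 to 20000 and -0.20 above 20000 bases. At each of these lengths the introns of genes that also have a short intron in the set were higher than those of other genes. Examples are 0.16 against 0.05 at 1001 to 5000 bases and 0.05 against -0.06 at 5001 to 20000. The count criterion uses the mean of both groups, so a rise with aggregates can place a gene in the set. This difference is therefore fixed in part by the choice. At 1001 to 5000 bases the median mean counts were 134 and 82.8. Introns just over the length criterion, of 201 to 210 bases, had a median of 0.35 with 8 of 98 called, and those just within it, of 191 to 200 bases, 0.27 with 7 of 106 called. Just inside the count criterion stood introns of SREBF1 (-0.02), VCP (0.67) and RBM22 (0.83), and just outside it introns of TTC37 (-0.02) and SF1 (0.60).

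**Figure D4:**
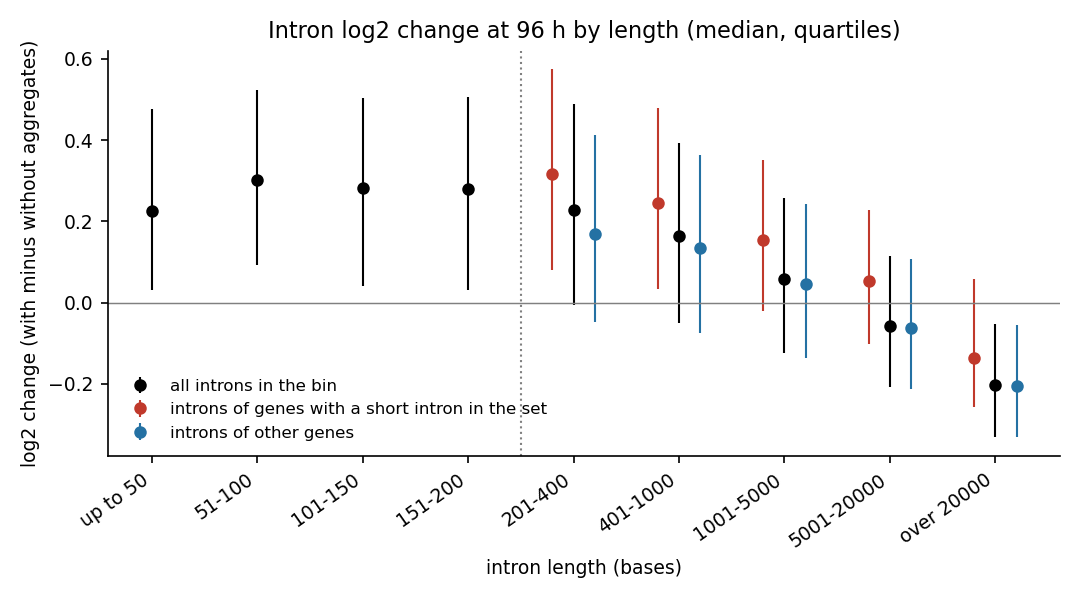
Median log2 change with minus without aggregates (points, with quartiles as bars) of introns with a mean count of at least 36 in protein-coding genes by length in bases. Right of the dotted line, red marks genes that also have a short intron in the set and blue marks other genes. Medians fall from 0.30 at 51 to 100 bases to -0.20 above 20000 bases, and red lies above blue in each bin. The split into red and blue uses counts of both groups, so it depends in part on the change itself.

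The genes of the ribosome and of translation gave the highest median among the gene lists. In 54 genes for ribosomal proteins and translation factors, 16 of 88 short introns rose, 0 fell and the median was 0.58 log2 units. Over all 1631 short introns 4.72% rose and the median was 0.29, and the counts and medians of the lists are to be read against these values. Beside the introns of RPS3 and EIF4A2, RPS13 rose by 1.34 ± 0.34 in an intron of 161 bases. RPL10A rose by 1.03 ± 0.20 (deposited adjusted p = 0.0001065, 156 bases), and EEF2, the factor that moves the ribosome along the mRNA, by 0.85 and 0.83 in 2 of its 3 short introns. The longer introns of these genes had a median of 0.47, and 54 of 211 were called higher.

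Splicing factors and nuclear speckle proteins had 68 short introns in 39 genes, of which 7 rose and 0 fell, with a median of 0.39. PTBP1, a repressor of alternative exons, rose by 1.20 ± 0.31 (126 bases), and HNRNPM by 1.19 ± 0.34 (117 bases), in addition to ALYREF and RNPS1. The introns of ALYREF and HNRNPM had group means of 22.4 and 26.9 without aggregates and met the count criterion through the group with aggregates. PNN, a speckle and exon junction protein, rose by 1.10 ± 0.26 (197 bases). The 273 longer introns of these genes had a median of 0.43 with 37 called higher. Chromatin regulators had 46 short introns in 22 genes, with 9 higher, 6 of them in BRD2, and a median of 0.41, against 0.14 in their longer introns. SETD1A, a histone H3 lysine 4 methyltransferase, gave 2 of the others at 1.37 ± 0.30 and 1.09 ± 0.31. KMT2D, of the same enzyme class, rose by 1.25 ± 0.31 in an intron of 148 bases.

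Stress genes gave few introns. Integrated stress response and p53 target genes had 13 short introns in 9 genes, with 4 higher and a median of 0.34, against 0.01 in their longer introns. GADD45A, induced by DNA damage, rose by 1.22 ± 0.31 (137 bases), SQSTM1, a receptor of selective autophagy, by 1.08 ± 0.30 and 1.03 ± 0.22, and SLC3A2, a subunit of amino acid transporters, by 0.98 ± 0.28. Heat shock proteins and chaperones had 2 higher of 43, a share of 4.65% that is close to that of all short introns, and a median of 0.36, against 0.21 in their longer introns. These were CALR, a lectin chaperone of the endoplasmic reticulum, at 1.33 ± 0.23 (deposited adjusted p = 6.33e-06, 192 bases), and CCT4, a subunit of the cytosolic chaperonin, at 1.10 ± 0.28. Among longer introns with a mean count of at least 36, those of CALR had a median of 0.97, and the only 1 of CCT4 stood at 0.09.

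Each of the other lists had at most 2 calls. Tubulin and actin genes had 2 of 23 short introns higher and a median of 0.33, against 0.05 in their longer introns. The called introns were those of TUBB4B at 1.22 ± 0.25 and ACTG1 at 1.28 ± 0.36. DNA replication and repair genes had 1 of 42, the PCNA intron, with a median of 0.32 against 0.20 in their longer introns. RNA polymerase and initiation factor genes had 1 of 12, in POLR1D, a subunit of RNA polymerases I and III, at 1.02 ± 0.28, with a median of 0.23 against 0.19 in their longer introns. No short intron was called in proteasome and ubiquitin genes (41 introns, median 0.38), glycolysis and citrate cycle genes (30, median 0.25), RNA decay and nuclear export genes (21, median 0.25) or aminoacyl tRNA synthetases (14, median 0.00). The longer introns of these 4 lists had medians of 0.27, 0.20, 0.21 and -0.04. The deposited test gave these lists 0 calls, and no other test could be run on the table. In glycolysis the introns with most reads were those of ENO1 (0.23) and TPI1 (0.32), and in the tRNA synthetases those of AARS (-0.08 and -0.19). The 1190 short introns in no list had 35 higher and a median of 0.24. None of the 12 lists had a short intron called lower. None of these counts or medians was tested against the other short introns. The lists include called introns that met the count criterion only through the group with aggregates, and they were not recounted without them. Besides those of ALYREF and HNRNPM, examples are ACTG1 (22.0 without aggregates), SETD1A (34.9 and 32.2) and KMT2D (35.1).

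Other called introns outside the rule for naming, given after their values were seen, include C6orf48 at 1.04 ± 0.25 in an interval of 62 bases and NCL, the nucleolar protein nucleolin, at 1.09 ± 0.27 and 1.20 ± 0.34. Whether reads of any short intron come from a snoRNA was not tested, since no human annotation was used here.

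The splicing table of the authors, made with MAJIQ from the same 6 libraries, gives for each retained intron the fraction of transcripts that keep it among the choices at a splice site (PSI). It is another readout of the same libraries and not an independent experiment. Of the short introns, 456 in 339 genes were found there as retained introns with the same ends. Their median PSI was 0.382 without and 0.394 with aggregates. The median change in PSI was 0.006, and it was above 0 in 327 of 456 introns (71.7%), against 54.8% of all 71480 retained introns in the table, where the median change was 0.00014. No short intron reached the call used here, a change of at least 0.1 with a deposited probability of at least 0.95 for a change of 0.2 or more, which 0.104% of all retained introns reached. Across the 456 introns, changes in PSI and log2 changes in counts had a Pearson's r of 0.50 and a Spearman's rho of 0.53. Libraries and genes were shared, and the direction of the counts was itself read from this splicing table. The positive sign is therefore no separate evidence of a shared direction.

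The only short intron whose PSI changed by at least 0.1 was that of RPL7A of 104 bases (chromosome 9, 133348818 to 133348921). Its deposited expected PSI was 0.075 without and 0.206 with aggregates, and the probability of a change of 0.2 or more was 0.0888. Its count was higher by 0.62 ± 0.22 and not called. Of the 77 introns called by counts, 20 were found in the splicing table. Their PSI change had a median of 0.0144 with 16 above and 4 below 0. Since the direction of the counts was read from called introns in this table, this split is fixed in part. In BRD2 the intron of 120 bases went from a PSI of 0.411 to 0.492 and that of 117 bases from 0.416 to 0.466. KMT2D went from 0.365 to 0.426 and the NOP56 intron of 105 bases from 0.117 to 0.18. The 190 base intron of RPL7A, called higher by counts, went from 0.303 to 0.251, and the called DDX5 intron of 105 bases from 0.328 to 0.289. The deposited change in PSI is an expected value of its own and need not equal the difference of the group values: for the called HNRNPH1 intron of 149 bases it was 0.00733 while the group values went from 0.342 to 0.312. Counts higher by 0.83 to 1.37 log2 units thus stood beside PSI changes of -0.0241 to 0.0597.

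**Figure D5:**
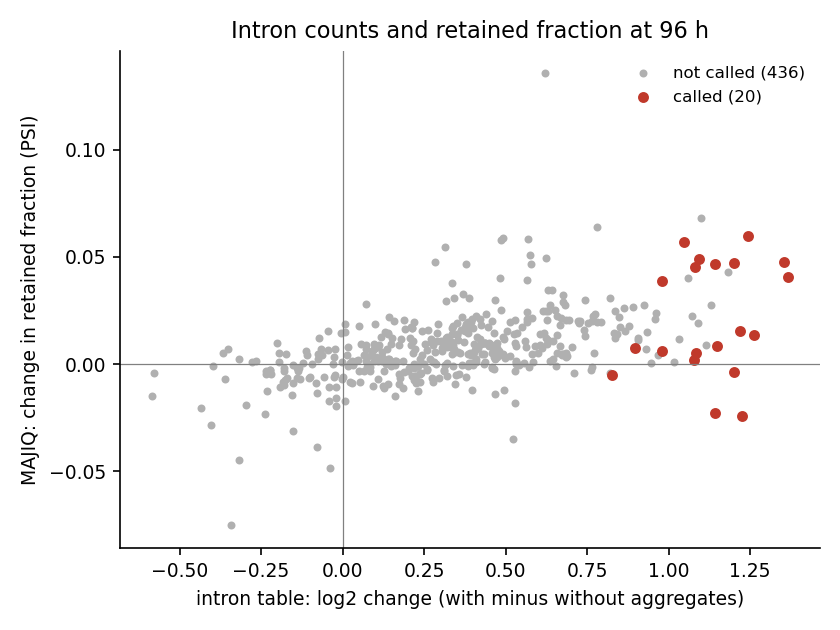
Change in the retained fraction (PSI) with minus without aggregates from MAJIQ (vertical axis) against the log2 change in intron counts (horizontal axis) for 456 short introns, red where called by counts. PSI changes run from -0.075 to 0.136, and 16 of the 20 called introns lie above 0. The direction of the horizontal axis was itself read from the splicing table.

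The host genes were also measured in the 24 h libraries, which are other samples than those that chose the introns. These compare RNA in sorted aggregates with total RNA of cells given homogenate, so they measure where a transcript lies and not the response to aggregates. Reads assigned to genes were 13.7 M and 13.8 M in the total libraries and 1.19 M and 0.879 M in the aggregates. Levels are FPKM, which is scaled to transcript length and depth, and differences are on the log2(FPKM + 1) scale with SE and Benjamini-Hochberg adjusted p from limma. Of all 9619 genes tested, 24.5% were higher in aggregates and 24.7% lower. Of the 1033 host genes, 968 were tested, with 229 higher, 320 lower and a median difference of -0.09, against 0.02 for all genes. Of the 58 genes with a called short intron, 57 were tested, with 9 higher, 36 lower and a median of -0.52. Without total replicate 1 or total replicate 2 no host gene was called in either direction by limma, in fits where the lone library is assumed to vary like the other group. The differences themselves were similar there, with RPS3 at -1.28 and -1.18 and PCNA at -2.35 and -2.27 (limma adjusted p from 0.0748 to 0.086), against -1.23 and -2.31 with all 4 libraries. Without aggregate replicate 1 or aggregate replicate 2 the differences were also similar, with RPS3 at -1.19 and -1.27 and PCNA at -2.36 and -2.26. The share of all genes called in fits without 1 library was not worked out. Depth differed more than 10-fold between the groups, and its part in the counts of called genes was not tested.

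RPS3 stood at 565 and 604 FPKM in the total libraries and at 242 and 255 in the aggregates. Both aggregate libraries were lower, by 1.23 ± 0.09 log2 units (limma adjusted p = 0.0044). PCNA stood at 197 and 208 FPKM in total RNA and at 41.5 and 38.5 in aggregates (-2.31 ± 0.09, limma adjusted p = 0.0042). This was the largest difference among the host genes of the 10 largest called rises. NOP56 had 82.7 and 84.5 FPKM in total RNA and 54.5 and 61.9 in aggregates (-0.52 ± 0.10, limma adjusted p = 0.019). EIF4A2 had 32.8 and 32.2 FPKM against 19.0 and 19.2, and ZFAND5 was lower by 0.51 ± 0.10 log2 units. In all of these genes the groups did not overlap, which was also the case for 79.5% of all genes tested. GPAA1 was higher in aggregates, with 25.7 and 24.5 FPKM in total RNA against 31.5 and 38.8 (0.46 ± 0.13, limma adjusted p = 0.047). ALYREF, with 88.7 and 89.6 FPKM against 70.4 and 80.5, did not overlap and was not called (limma adjusted p = 0.12). ID3, with 14.4 ± 0.95 against 16.5 ± 2.06 FPKM (SD, n = 2), and RNPS1, with 79.2 and 71.9 against 72.1 and 76.7, overlapped and were not called. BRD2, with 138 and 133 FPKM in total RNA and 135 and 120 in aggregates, overlapped between groups and was not called (limma adjusted p = 0.47).

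PTBP1 went the other way, with 124 and 120 FPKM in total RNA and 340 and 428 in aggregates (1.63 ± 0.14, limma adjusted p = 0.0048). SQSTM1 was also higher, by 0.57 ± 0.09 log2 units (limma adjusted p = 0.0115). Genes whose short introns were raised at 96 h were thus found on both sides of this comparison, but not evenly. Of the 57 tested, 15.8% were higher in aggregates and 63.2% lower, against 24.5% and 24.7% of all genes tested.

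Markers of the line were checked in the 24 h libraries only. VIM, KRT18 and NEFM were present at 15.0 to 197 FPKM in all 4 libraries, KRT8 at 1.59 to 5.54, PAX2 at 2.26 to 6.50 and LHX1 at 0.618 to 1.47. In the aggregate libraries, 3 reads per kilobase of transcript equal 2.52 and 3.41 FPKM, against 0.219 and 0.217 in total RNA. Marker levels near or under these values in aggregates rest on few reads. Of 10 marker genes of brain cells, 8 stayed under 1 FPKM in every library and AIF1 and CLDN5 were at 0. These are human genes on hg38, while the homogenate came from mouse brain, so low levels cannot show whether its RNA was absent. The summed level of the 10 was 6.41 to 7.10 FPKM in total RNA and 8.89 to 14.0 in aggregates, most of it from GAD1.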

How the data were processed

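RNA was sequenced from 6 HEK293 libraries at 96 h and 4 at 24 h. The aligner was STAR 2.6.0c with hg38, per the submitters' processing notes. How iREAD and MAJIQ were run is not given here by any label or header. The authors deposited for each intron a mean normalised count (signal), a log2 change with its SE, a score (the change divided by its SE), a p-value and an adjusted p, per the file headers, and for splicing variations other values (PSI and probabilities). The 24 h files hold FPKM deposited by the authors, and reads were recovered from its steps for depth only. The first base of an intron was set 1 base after the deposited start, since ends then met MAJIQ junctions.

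No test was computed on the 96 h tables. Genes at 24 h with a mean of at least 5 FPKM entered a limma fit with a trend (limma 3.58.1, R 4.3.3) on log2(FPKM + 1), a pseudocount of 1, and called at an adjusted p under 0.05; the fit was tested on simulated data. That scale understates changes of low genes. Named introns were the 10 largest rises among called introns, the 8 highest mean counts and the 5 shortest. Up to 4 called introns per list (otherwise the 2 with the highest mean count) and those with a PSI change of at least 0.1 were also named. Any other intron was named with its value already seen. The introns and the gene lists were chosen with earlier results of these data known. Alternatives changed thresholds, length and count criteria, filters, scaling and left out each 24 h library. The mouse libraries were not used. Some items are not reported here.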

Additional observations from a re-analysis of the deposited data

How the results depend on the processing

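The number of short introns called higher was 77 of 1631. It moved to 35 at a deposited adjusted p under 0.01 and to 116 under 0.1, over the same introns. It was 29 of 628 with a length of at most 100 bases and 159 of 3771 with at most 400. A mean count of at least 100 gave 29 of 188, and 1 intron per gene gave 42 of 1033. Of the alternatives added after seeing the data, introns with a MAJIQ junction gave 34 of 828. These sets held 188 to 3771 introns, and the cause of the differences was not tested beyond the thresholds themselves. With p adjusted again over every intron with a p-value the count was 52. For these alternatives the share of all introns called was not worked out. The 1.5% given for all introns holds only for the deposited adjusted p under 0.05. None of these alternatives called a short intron lower. The median log2 change, 0.29, was 0.25 to 0.35 under them, 0.22 over introns with both group means at 36 or more (55 called; added after seeing the data), and 0.20 over short introns at any mean count. The difference from longer introns of the same gene lay between -0.0064 and 0.011. At 24 h, leaving out 1 library gave 0 to 334 host genes higher and 0 to 439 lower; the 0 came from fits with 1 total library, where EIF4A2 was at -0.72 and -0.75 against -0.74 and NOP56 at -0.53 and -0.50 against -0.52. The fit with a replicate block gave 294 host genes lower, against 320 without it (201 and 229 higher). The share of all genes called in the fit with the block was not worked out. Deviations of same-numbered 24 h libraries had a correlation of 0.036 over 9619 genes, so the numbers were not taken as pairs. RNPS1, at -0.02 and not called, ranged from -0.0893 without total replicate 2 to 0.0488 without total replicate 1, with a change of sign also without aggregate replicate 1 (0.0239). GPAA1, higher by 0.46 in aggregates, was not called under 6 of its alternatives. No paired analysis was possible because the 96 h tables hold no values per library, and what their depth limits is not known.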
